A study of Mus musculus with 16 samples.

Results

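The response of mouse tibialis anterior to formoterol was compared between 4 h and 1 h after a single dose, as the difference of 2 differences: formoterol minus saline at 4 h, less formoterol minus saline at 1 h. All 16 arrays of the series entered this contrast (16 of 16), with 1 male C57BL/10 ScSn mouse to each array and 4 mice in each of formoterol 4 h, saline 4 h, formoterol 1 h and saline 1 h. The mice were wild type and 6 to 7 weeks old. Treated mice received formoterol at 100 µg/kg in saline by the intraperitoneal route, the control mice saline alone, and the muscle was excised at the end of the interval, so that no mouse was measured at both times. A group therefore stands for whole muscle, with its fibres, vessels, blood and connective tissue, and fewer cells of a type cannot be told apart from less RNA per cell. Throughout, a "larger" response is one that was more positive at 4 h than at 1 h, and a "smaller" response one that was more negative, whatever the sign of either response.

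Formoterol is a long-acting agonist of the β2-adrenoceptor, the main β-adrenoceptor of skeletal muscle, which couples through a stimulatory G protein to adenylyl cyclase and cyclic AMP. Protein kinase A then phosphorylates the transcription factor CREB, which binds cyclic AMP response elements and drives a first wave of immediate-early genes without new protein synthesis. Many products of that wave are themselves transcription factors or inhibitors of the signal, so that early transcripts commonly decay while secondary transcripts accumulate. In skeletal muscle the pathway is known for glycogen breakdown, induction of the coactivator PGC-1α and, with repeated dosing, hypertrophy.

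Each array reported bead intensities that the authors had divided by the array's median over detected probes, and values below are such ratios, so that a value of 1 is the signal of the median tested probe on that array. Of 46120 probes, 7596 were scored as detected with full confidence (a score of 1) on 4 or more arrays and were tested, with a median intensity of 393 to 746 units per array, or 2.33 to 3.74 times the level of undetected probes. The differences are on the log2 scale with their standard error (SE), from limma's fit to the 4 group means, and a probe was called at a Benjamini-Hochberg adjusted p under 0.05. A gene name could be given to 2745 of the tested probes, or 2520 genes, by reading the probe ID as a gene number, an accession or a clone name, and for 77 of them by a match to gene tables of the study. These names are inferences from the IDs and the match. Those tables list genes selected as changed in these same mice. Of the genes measured by such a probe 40 of 75 had a larger and 8 of 75 a smaller response, against 47 and 25 of 2445 genes named otherwise, so that counts of gene lists are given with and without these probes. Over all 2520 named genes, by the brightest probe of each, 87 were larger and 33 smaller, or 4.76% called. Each list count below is to be read beside these shares. A gene counted as measured is one with a named tested probe. The 4851 tested probes without a name could hold further list members, so a gene outside a count was not necessarily untested.

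The 2 responses differed at 256 of 7596 probes (3.37% of those tested), of which 167 (2.2%) were larger and 89 (1.17%) smaller at 4 h. In comparison, the response itself was called at 16% of probes at 4 h and at 2.74% at 1 h. The differences reached at least 2-fold in 37 larger and 18 smaller probes, with medians of 0.76 and -0.68 over the called probes, beside a median of 0.02 over all 7596. The SE of a difference was 0.13 at the median probe. Setting each formoterol mouse against the saline mean of its time, the 4 mice at 4 h did not overlap the 4 at 1 h in any of the 256 called probes, and this was so at 21.9% of all probes. Among the larger responses, 131 of 167 were called as higher at 4 h and not called at 1 h, 25 were higher at both times, 4 were higher at 4 h and lower at 1 h, 3 were lower at 1 h only and 4 were called at neither time. Among the smaller responses the arrangement was different: 61 of 89 were lower at 4 h and not called at 1 h, 16 were higher at 1 h only, 8 were higher at both times but less so at 4 h, 1 was lower at 4 h and higher at 1 h, and 3 were called at neither time. Responses called at 4 h and not at 1 h made up most calls in both directions, and rises that were smaller at 4 h than at 1 h made up the 16 and the 8. A missing call at 1 h does not show that a response had not begun.

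**Figure D1:**
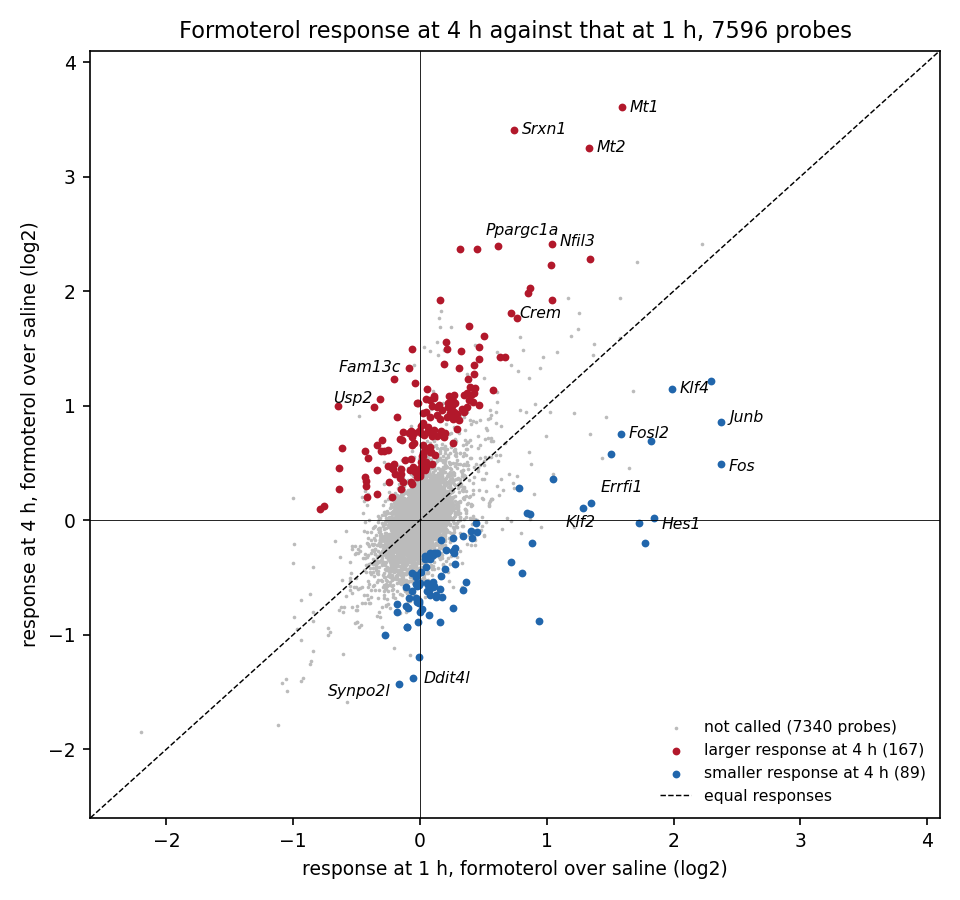
Response at 4 h (formoterol over saline, log2, vertical axis) against the response at 1 h (horizontal axis) for each of 7596 probes, with called differences in colour and equal responses on the dashed line. Most of the 167 larger responses (red) lie near 0 on the horizontal axis, while Fos, Junb and Hes1 lie far to the right among the 89 smaller ones (blue).

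The same difference was taken apart by treatment, as the change at 4 h over 1 h in formoterol mice less that in saline mice. Formoterol mice differed between the times at 5.45% of probes and saline mice at 0.0922%, which is 7 probes. Of the 167 larger responses, 140 came with a higher level in formoterol mice at 4 h than at 1 h, and of the 89 smaller ones 64 with a lower level. A called change in saline mice accompanied 5 larger responses and 1 smaller response. The saline mice still carried a part of the difference: their median change was -0.14 over the larger and 0.15 over the smaller probes, beside 0.59 and -0.46 in formoterol mice, and they held over 50% of the difference at 22 larger and 18 smaller probes. Ppp1r3c had the largest saline part among the called genes named in the text, 92.0% of its difference. This gene encodes a subunit that targets protein phosphatase 1 to glycogen. It read 26.4, 27.3, 29.9 and 32.6 in formoterol mice at 4 h, 8.78, 11.7, 11.9 and 13.5 in saline mice at 4 h, 24.8, 31, 31.6 and 23.6 in formoterol mice at 1 h and 15.7, 18.5, 24 and 25.3 in saline mice at 1 h. The formoterol mice of both times overlapped, whereas all saline mice at 4 h lay below those at 1 h, and the difference of 0.93 (SE 0.21, adjusted p = 0.0195) was made of a change of 0.07 in formoterol mice and -0.85 in saline mice.

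**Figure D2:**
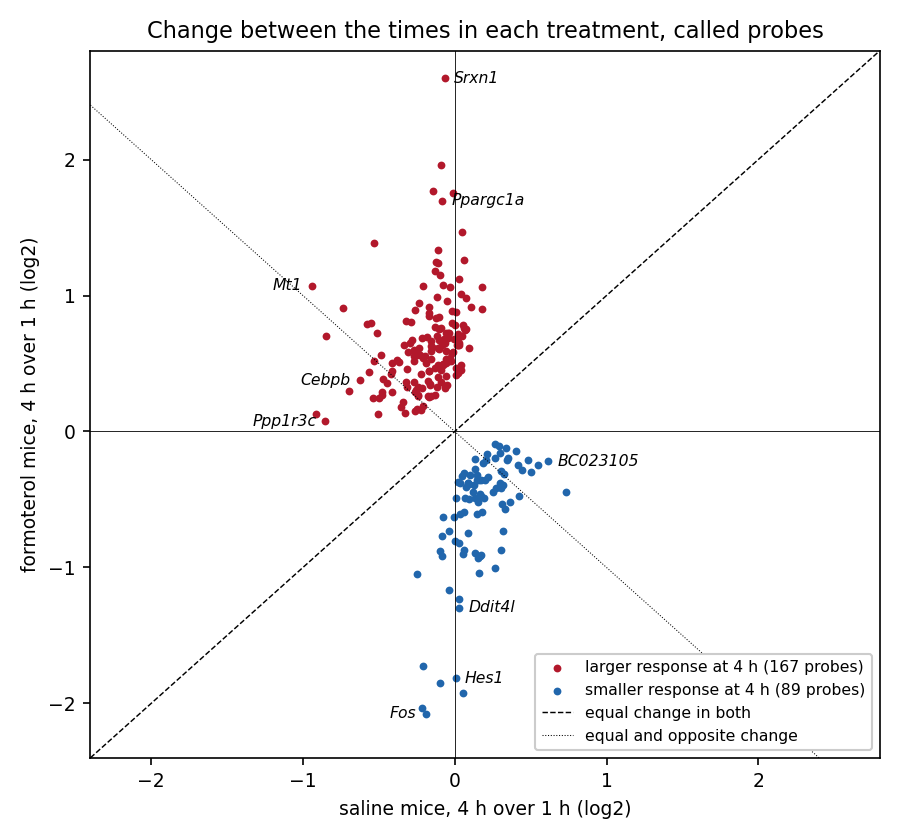
Change between the times (4 h over 1 h, log2) in formoterol mice (vertical axis) and in saline mice (horizontal axis) for the 256 called probes, with equal changes on the dashed line and equal and opposite changes on the dotted line. Srxn1, Ppargc1a, Hes1 and Fos lie close to the vertical axis, whereas Ppp1r3c lies close to the horizontal one.

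Among named genes the largest waning was that of Fos, followed by Hes1 and Junb. Fos encodes a subunit of the AP-1 transcription factor and is a textbook target of CREB. It read 0.658, 0.809, 0.772 and 1.67 in formoterol mice at 4 h, 0.695, 0.507, 0.552 and 0.912 in saline mice at 4 h, 3.1, 3.69, 4.59 and 4.11 in formoterol mice at 1 h and 0.851, 0.599, 1.16 and 0.51 in saline mice at 1 h. All 4 formoterol mice at 1 h stood above every other mouse, and at 4 h only replicate 4, at 1.67, exceeded all saline mice. The response was 0.49 at 4 h (adjusted p = 0.231) and 2.37 at 1 h (adjusted p = 2.33e-05), a difference of -1.88 (SE 0.38, adjusted p = 0.00795). Its partner Junb had 0.678, 0.86, 0.788 and 0.859 in formoterol mice at 4 h, 0.467, 0.329, 0.436 and 0.542 in saline mice at 4 h, 3.52, 2.44, 3.17 and 1.73 in formoterol mice at 1 h and 0.483, 0.574, 0.505 and 0.461 in saline mice at 1 h. Junb was not detected on any saline array, so its rise was at least 1.61-fold at 4 h and at least 4.88-fold at 1 h, and the formoterol mice of the 2 times did not overlap. The fitted difference was -1.52 (SE 0.25, adjusted p = 0.00155), of which -1.73 lay in formoterol mice, measured on all 8 arrays.

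Hes1, the Notch target that represses transcription as a basic helix-loop-helix factor, stood apart from saline at 1 h only. Its values were 0.653, 0.836, 0.769 and 0.777 in formoterol mice at 4 h, 0.847, 0.696, 0.677 and 0.771 in saline mice at 4 h, 2.37, 3.25, 3.11 and 2.09 in formoterol mice at 1 h and 0.648, 0.678, 0.832 and 0.828 in saline mice at 1 h. The 1 h formoterol mice lay at 2.09 or above and all other mice at 0.847 or below, with both 4 h groups overlapping. Accordingly the response was 0.02 at 4 h and 1.84 at 1 h (difference -1.82, SE 0.19, adjusted p = 2.10e-05). Klf2, a Krüppel-like factor best known from endothelium, gave 1.12, 1.35, 1.17 and 1.29 in formoterol mice at 4 h, 0.878, 1.24, 1.26 and 1.23 in saline mice at 4 h, 2, 2.14, 2.23 and 2.66 in formoterol mice at 1 h and 0.945, 1.11, 0.868 and 0.79 in saline mice at 1 h. Its 4 h groups overlapped and its 1 h groups did not (difference -1.18, SE 0.18, adjusted p = 8.26e-04). Errfi1, an inhibitor of the EGF receptor kinase that is induced by the signals it restrains, had 1.39, 1.45, 2.08 and 2.03 in formoterol mice at 4 h, 1.29, 1.65, 1.77 and 1.51 in saline mice at 4 h, 3.48, 3.13, 4.06 and 3.42 in formoterol mice at 1 h and 1.25, 1.43, 1.33 and 1.53 in saline mice at 1 h. Again only the 1 h formoterol mice stood apart, and the difference was -1.2 (SE 0.19, adjusted p = 0.00108).

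Other early genes were still called as higher at 4 h, by less than at 1 h. Fosl2, a further AP-1 subunit, responded with 0.75 at 4 h and 1.59 at 1 h (difference -0.83, SE 0.13, adjusted p = 0.00122), and all formoterol mice stood above all saline mice of their time. Klf4, a Krüppel-like factor, did likewise, with 1.15 and 1.99 (difference -0.84, SE 0.21, adjusted p = 0.0315). A second, dimmer probe of Klf4 differed by -0.25 and was not called. Csrnp1, a nuclear transcription factor of the early-response class, was not detected in saline mice and rose at least 1.23-fold at 4 h and at least 2.07-fold at 1 h (fitted difference -0.93, SE 0.24, adjusted p = 0.0419). The clone 1200016E24Rik likewise responded with 1.21 at 4 h and 2.29 at 1 h (adjusted p of the difference 0.047). By contrast Tmcc3, which encodes a membrane protein of the endoplasmic reticulum, was called as higher at 1 h (0.72) and not called at 4 h (-0.37), a difference of -1.08 (adjusted p = 0.00233). Nr4a2, the orphan receptor Nurr1, had 0.71, 1.07, 0.872 and 0.779 in formoterol mice at 4 h, 0.376, 0.285, 0.383 and 0.544 in saline mice at 4 h, 1.66, 1.46, 1.28 and 1.07 in formoterol mice at 1 h and 0.428, 0.437, 0.425 and 0.395 in saline mice at 1 h. It was not detected in any saline mouse and rose at least 1.72-fold at 4 h and at least 2.52-fold at 1 h. The highest formoterol mouse at 4 h met the lowest at 1 h, at 1.07, and the fitted difference of -0.55 (SE 0.23) was not called (adjusted p = 0.294), nor was that of a second probe (-0.28).

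**Figure D3:**
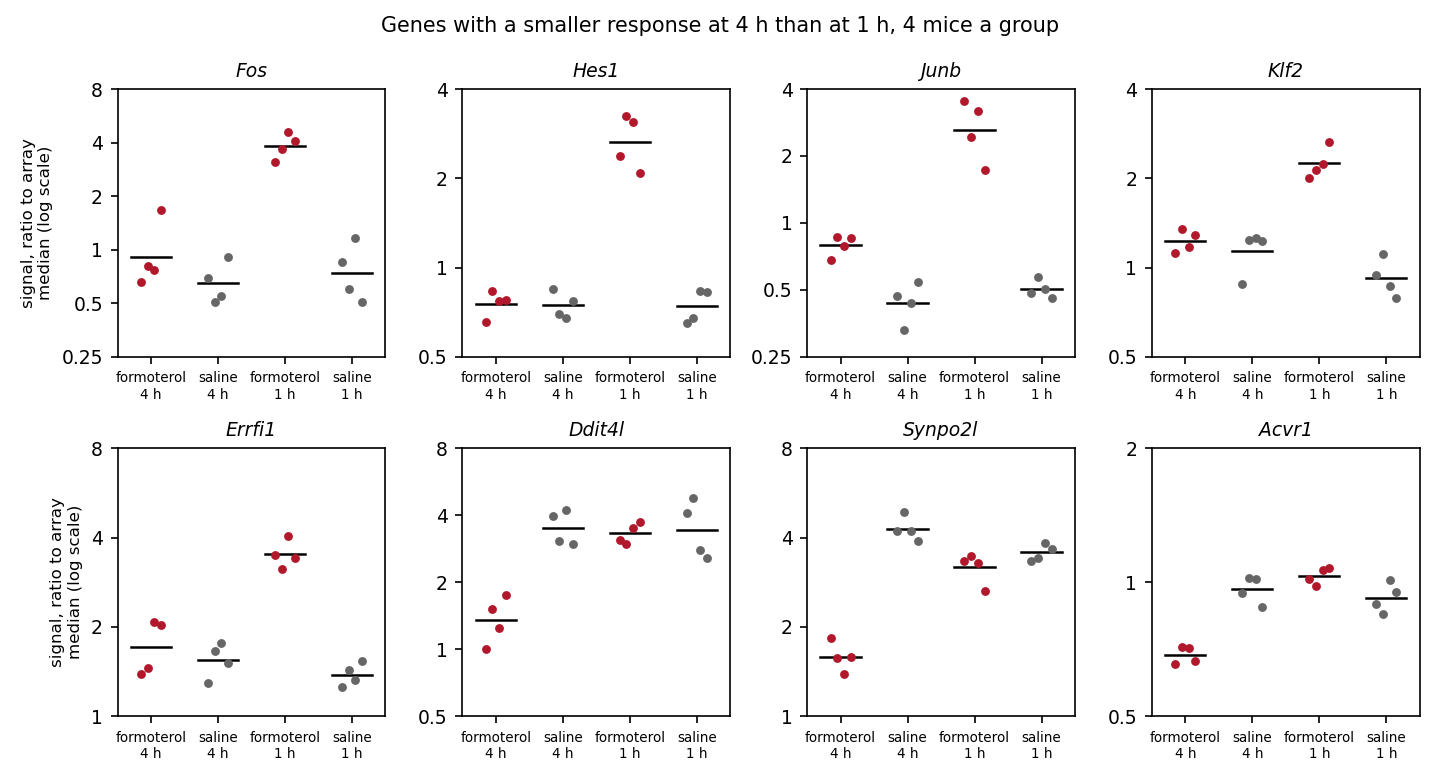
Signal of 8 genes with a smaller response at 4 h, as the ratio to the array median on a log scale, for each of 4 mice in the 4 groups (points) with the mean of log2 values (bars). Fos, Hes1, Junb, Klf2 and Errfi1 are high in formoterol mice at 1 h, while Ddit4l, Synpo2l and Acvr1 are low in formoterol mice at 4 h.

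In all, 16 of the 38 genes on the list of immediate-early and CREB target genes had a named tested probe. Of these, 6 waned, 5 grew and 5 were not called, a median difference of -0.06 beside 0.03 over the 2520 named genes, and without probes named through tables of the study, 4 waned and 2 grew of 9. The growing members were Ppargc1a, Nfil3, Crem, Cebpb and Pde4d. Ppargc1a, which encodes PGC-1α, the coactivator of mitochondrial and oxidative genes, had 5.24, 5.86, 7.82 and 4.09 in formoterol mice at 4 h, 1.14, 0.977, 1.16 and 0.998 in saline mice at 4 h, 1.84, 1.57, 1.04 and 2.96 in formoterol mice at 1 h and 1.08, 1, 1.29 and 1.17 in saline mice at 1 h. The 4 h formoterol mice exceeded all others, while at 1 h replicate 4 was at 2.96 and replicate 3 was within the saline range. The response was 2.39 at 4 h and 0.62 at 1 h, where it was not called (adjusted p = 0.202), with a difference of 1.78 (SE 0.32, adjusted p = 0.00313).

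Nfil3, a basic leucine zipper repressor that competes with Dbp at clock output genes, had 5.75, 8.03, 7.43 and 9.01 in formoterol mice at 4 h, 1.09, 1.1, 1.74 and 1.86 in saline mice at 4 h, 4.66, 4.14, 4.01 and 4.5 in formoterol mice at 1 h and 2.11, 2.38, 2.15 and 1.78 in saline mice at 1 h. Formoterol mice exceeded saline mice at both times without overlap, by 2.41 at 4 h and 1.04 at 1 h (difference 1.37, SE 0.23, adjusted p = 0.00183). Of that difference 0.79 lay in formoterol mice, and saline mice changed by -0.58. Crem gives rise to repressors that end CREB-driven transcription. It read 1.31, 1.74, 1.59 and 1.65 in formoterol mice at 4 h, 0.401, 0.412, 0.482 and 0.502 in saline mice at 4 h, 0.826, 0.668, 0.72 and 0.679 in formoterol mice at 1 h and 0.445, 0.443, 0.449 and 0.414 in saline mice at 1 h. It was not detected in saline mice at 1 h, where its rise was at least 1.34-fold, and formoterol mice at 4 h stood above those at 1 h (fitted difference 1.09, SE 0.14, adjusted p = 1.61e-04). Pde4d, a phosphodiesterase that degrades cyclic AMP, responded with 1.92 at 4 h and 1.04 at 1 h (difference 0.88, SE 0.13, adjusted p = 7.92e-04). The difference of Cebpb, a leucine zipper factor of metabolism and inflammation, was 1.0 (SE 0.24, adjusted p = 0.0223). Its values were 10.8, 9.5, 13.3 and 9.79 in formoterol mice at 4 h, 2.57, 3.04, 3.74 and 3.38 in saline mice at 4 h, 9.49, 9.16, 9.02 and 5.95 in formoterol mice at 1 h and 5.18, 6.28, 3.72 and 4.61 in saline mice at 1 h. Here the formoterol mice nearly overlapped between the times, with a change of 0.38, and the saline mice changed by -0.62.

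Of 8 measured signal feedback genes, 2 (Crem and Pde4d) grew, 2 (Hes1 and Errfi1) waned and 4 were not called. The median was -0.18, and without table probes 1 grew and 1 waned of 6.

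To set these members beside the element CREB is known for, the promoter windows of the 2 largest waning and the 2 largest growing members are shown, from 250 bases before to 50 after a RefSeq start on GRCm38.p6, read 5′ to 3′ on the gene's strand, with TGACG or its reverse complement CGTCA, the core of the cyclic AMP response element, in capitals.
Fos, chr12:85473640-85473939, plus strand: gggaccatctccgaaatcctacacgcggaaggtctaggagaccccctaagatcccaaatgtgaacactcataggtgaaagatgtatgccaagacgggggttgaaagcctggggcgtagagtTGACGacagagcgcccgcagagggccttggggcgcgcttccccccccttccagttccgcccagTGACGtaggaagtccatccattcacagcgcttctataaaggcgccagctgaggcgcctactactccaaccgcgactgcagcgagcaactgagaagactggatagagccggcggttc
Junb, chr8:84978699-84978998, minus strand: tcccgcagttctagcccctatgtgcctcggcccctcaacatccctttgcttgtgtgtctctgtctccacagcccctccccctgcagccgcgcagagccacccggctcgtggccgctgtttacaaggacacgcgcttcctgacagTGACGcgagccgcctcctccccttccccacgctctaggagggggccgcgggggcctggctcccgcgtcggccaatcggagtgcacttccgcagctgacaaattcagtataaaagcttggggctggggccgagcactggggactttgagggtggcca
Ppargc1a, chr5:51567676-51567975, minus strand: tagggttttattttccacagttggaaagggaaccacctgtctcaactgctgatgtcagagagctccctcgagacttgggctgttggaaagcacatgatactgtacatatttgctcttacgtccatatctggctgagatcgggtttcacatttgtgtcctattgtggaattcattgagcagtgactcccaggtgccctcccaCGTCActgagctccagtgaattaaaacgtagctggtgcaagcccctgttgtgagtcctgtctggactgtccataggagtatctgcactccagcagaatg
Nfil3, chr13:52980990-52981289, minus strand: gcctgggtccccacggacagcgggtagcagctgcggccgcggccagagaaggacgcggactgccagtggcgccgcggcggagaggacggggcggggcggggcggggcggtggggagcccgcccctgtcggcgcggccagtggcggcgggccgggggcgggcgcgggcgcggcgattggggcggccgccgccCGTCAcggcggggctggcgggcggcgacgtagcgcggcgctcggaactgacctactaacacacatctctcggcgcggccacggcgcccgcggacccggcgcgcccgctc
Each window holds at least 1 core, 2 in Fos and 1 in each of the others. This core occurred in windows of 27 of 64 genes with a larger response (42.2%) and 10 of 25 with a smaller one (40%), out of 88 and 34 called genes, against 39.2% of 2036 tested genes with a window. The full element TGACGTCA occurred in 1 of 64 and 1 of 25, against 4.08% of tested genes. Over all 27025 genes with a window the shares were 23.1% and 2.03%. A match says only that these letters are in the window.

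The remaining smaller responses were mostly falls called at 4 h and not at 1 h, termed late falls here. Ddit4l, an inhibitor of mTORC1 signalling, had 0.998, 1.52, 1.25 and 1.75 in formoterol mice at 4 h, 3.96, 3.05, 4.22 and 2.98 in saline mice at 4 h, 3.09, 2.98, 3.5 and 3.74 in formoterol mice at 1 h and 4.08, 4.79, 2.79 and 2.56 in saline mice at 1 h. Only the 4 h formoterol mice stood apart, below all others, and the response was -1.38 at 4 h and -0.05 at 1 h (difference -1.33, SE 0.27, adjusted p = 0.00795). Synpo2l, a cytoskeletal protein of the sarcomeric Z-disc, had 1.83, 1.56, 1.38 and 1.59 in formoterol mice at 4 h, 4.2, 4.87, 4.2 and 3.89 in saline mice at 4 h, 3.34, 3.48, 3.29 and 2.65 in formoterol mice at 1 h and 3.33, 3.42, 3.85 and 3.67 in saline mice at 1 h. All 4 h formoterol mice were at 1.83 or below and all other mice at 2.65 or above (difference -1.27, SE 0.14, adjusted p = 5.38e-05), and a second probe differed by -0.62 (adjusted p = 0.00754). Further late falls were those of Vasp, which elongates actin filaments (difference -1.05, adjusted p = 0.00307), and Cdc42ep3, an effector of the GTPase Cdc42 (-1.03, adjusted p = 0.00563).

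Receptors of the BMP family were among the late falls. Acvr1, the type I BMP receptor ALK2, had 0.655, 0.715, 0.71 and 0.664 in formoterol mice at 4 h, 0.947, 1.02, 1.01 and 0.879 in saline mice at 4 h, 1.02, 0.982, 1.06 and 1.07 in formoterol mice at 1 h and 0.891, 0.847, 1.01 and 0.951 in saline mice at 1 h. The 4 h formoterol mice lay below all others, with a response of -0.49, and the 1 h response was 0.16 (difference -0.66, SE 0.1, adjusted p = 0.00108). Bmpr1a, the receptor ALK3, differed by -0.64 (SE 0.14, adjusted p = 0.0115), again with a fall at 4 h (-0.54). Smad3, an effector of TGF-β and activin, went the other way, with responses of 1.14 and 0.57 (difference 0.56, SE 0.14, adjusted p = 0.026). Among 12 measured BMP, TGF-β and Notch genes, 1 was larger, 3 were smaller, Hes1 included, and 8 were not called (median 0.06, without table probes 0 and 2 of 8), and the inhibitor of differentiation Id1 was not called (0.11, adjusted p = 0.85). Smad1, which the study lists as lower at 4 h, had no named probe and is not among the 12.

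Of 7 measured vascular and hypoxia genes, 1 was larger, 1 smaller and 5 were not called (median -0.03, 1 and 1 of 5 without table probes). The larger one was Egln3, a prolyl hydroxylase of hypoxia signalling (0.72, adjusted p = 0.0465), and the smaller one Pdgfa, a growth factor of mesenchymal cells (-0.59, adjusted p = 0.0354). Late falls outside that list were those of Nrp1, a co-receptor of VEGF and semaphorins, by 2 probes (-0.85 and -0.65, adjusted p = 0.00303 and 0.0176) and Emcn, an endothelial sialomucin (-0.7, adjusted p = 0.0442). The other 3 measured endothelial markers, Pecam1, Egfl7 and Robo4, were not called (0.30, 0.16 and -0.02), and the summed level of all 4 was 6.07 to 6.85 in formoterol mice and 6.89 to 7.99 in saline mice at 4 h, and 5.37 to 7.08 in formoterol mice and 5.58 to 7.79 in saline mice at 1 h. The part of endothelial RNA in these differences was not tested. Ppargc1b, which encodes PGC-1β, fell at 4 h (-0.65) with a difference of -0.78 (SE 0.15, adjusted p = 0.0054), opposite in sign to Ppargc1a. Atp1b4, a member of the Na,K-ATPase β-subunit family of muscle, differed by -0.88 (adjusted p = 0.0223), detected on 1 of 4 formoterol arrays at 4 h. BC023105 was not detected in formoterol mice at 4 h and at least 1.61-fold lower there than in saline mice (fitted difference -0.83, adjusted p = 0.00811), and saline mice accounted for a change of 0.62.

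The largest difference of all was a growing rise of Srxn1, the sulfiredoxin that reactivates overoxidised peroxiredoxins. It had 6.37, 7.88, 7.42 and 8.22 in formoterol mice at 4 h, 0.681, 0.53, 0.774 and 0.864 in saline mice at 4 h, 1.4, 1.11, 1.13 and 1.29 in formoterol mice at 1 h and 0.581, 0.66, 1.07 and 0.708 in saline mice at 1 h. The 4 h formoterol mice were 6.37 or above and no other mouse exceeded 1.40, so that the response was 3.41 at 4 h and 0.74 at 1 h (difference 2.66, SE 0.23, adjusted p = 8.12e-06). A pair of further probes of Srxn1 differed by 2.05 and 1.91 (adjusted p = 2.10e-05 each). The metallothioneins, small metal-binding proteins, followed. Mt1 read 55.4, 44, 60.8 and 56.2 in formoterol mice at 4 h, 3.3, 4.9, 4.9 and 4.78 in saline mice at 4 h, 33.5, 22.4, 31.8 and 17.8 in formoterol mice at 1 h and 7.35, 6.73, 13.8 and 7.56 in saline mice at 1 h. Both responses were without overlap, 3.61 at 4 h and 1.59 at 1 h, and the difference of 2.02 (SE 0.31, adjusted p = 9.09e-04) was shared between a change of 1.07 in formoterol and -0.94 in saline mice. Mt2 differed by 1.92 (SE 0.36, adjusted p = 0.00418), with 3.25 and 1.34. These 3 genes were the called ones among 13 measured metallothionein and antioxidant genes (median 0.18, 2 of 12 without table probes). Gclm and Prdx1, further antioxidant genes, were at 0.26 and 0.12 and not called. Probes of near copies such as Mt1 and Mt2 could share target RNA.

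**Figure D4:**
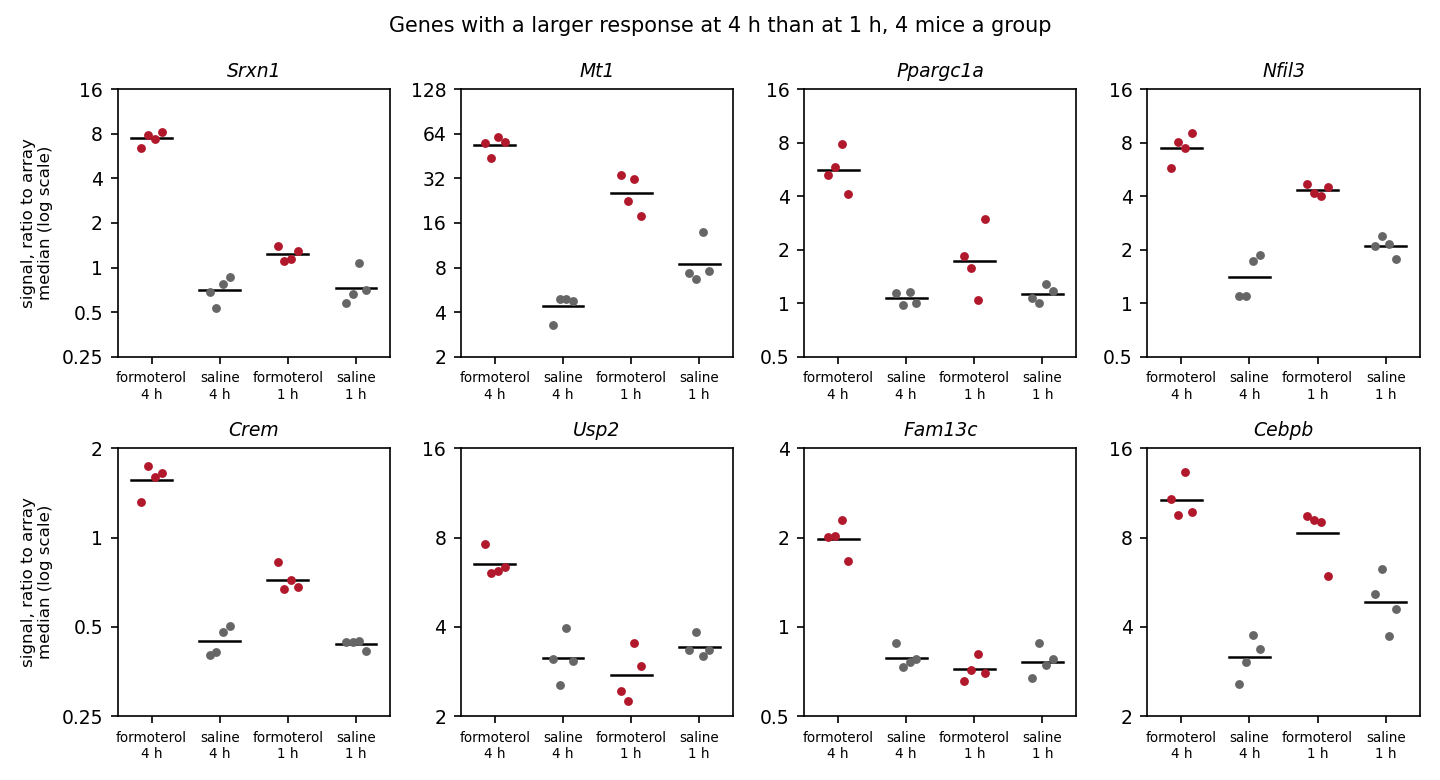
Signal of 8 genes with a larger response at 4 h, as the ratio to the array median on a log scale, for each of 4 mice in the 4 groups (points) with the mean of log2 values (bars). Srxn1, Usp2 and Fam13c are highest in formoterol mice at 4 h, without overlap with the other groups. For Srxn1 the formoterol mice at 1 h also lie above all saline mice. The Cebpb formoterol mice of the 2 times lie close together.

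Of 11 measured clock and clock output genes 5 had a larger response, none a smaller one and 6 were not called, with a median of 0.43 (1 larger of 6 without table probes). Nfil3, above, was one of them. Usp2, a deubiquitinase under clock control, had 7.61, 6.08, 6.18 and 6.36 in formoterol mice at 4 h, 3.11, 2.55, 3.96 and 3.07 in saline mice at 4 h, 2.43, 2.24, 3.53 and 2.96 in formoterol mice at 1 h and 3.35, 3.83, 3.18 and 3.34 in saline mice at 1 h. The 4 h formoterol mice exceeded all others, and the 1 h groups overlapped (responses 1.06 and -0.32, difference 1.37, SE 0.19, adjusted p = 5.11e-04). Cry2, a repressor of the core clock loop, responded with 1.47 at 4 h and 0.32 at 1 h (difference 1.15, SE 0.14, adjusted p = 1.28e-04). Noct, the rhythmic enzyme nocturnin, differed by 0.85 (adjusted p = 0.00747), and Rora, a nuclear receptor that activates Bmal1, by 0.55 (adjusted p = 0.0223). A further tested probe of Noct was not called.

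Dbp, the clock output activator, behaved otherwise. Its values were 1.44, 1.15, 1.93 and 1.97 in formoterol mice at 4 h, 5.79, 4.82, 6.84 and 5.54 in saline mice at 4 h, 0.674, 0.891, 1.3 and 0.928 in formoterol mice at 1 h and 4.24, 4.21, 4.13 and 4.36 in saline mice at 1 h. Formoterol mice lay below saline mice at both times without overlap, with responses of -1.85 at 4 h and -2.2 at 1 h, and the difference of 0.35 (SE 0.25, 95% interval -0.17 to 0.87) was not called (adjusted p = 0.605). The core activator Clock (-0.23), the nuclear receptor Nr1d2 (0.43) and the kinases Csnk1d (0.42) and Csnk1e (-0.05) were not called either (adjusted p = 0.0715 to 0.895). Time after injection and time of day cannot be told apart between the 2 times from the labels, and saline mice of the same time were subtracted in each response.

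In both lists of fuel handling genes the called members had larger responses. Over all 2520 named genes 87 were larger and 33 smaller, and without table probes 47 and 25 of 2445. Of 20 measured fatty acid and lipid genes 4 grew and none waned (median 0.26, 2 of 17 without table probes): the lipid droplet protein Plin4 (1.05, SE 0.2, adjusted p = 0.0049), the glycerolipid acyltransferase Gpat3 (1.02, SE 0.14, adjusted p = 3.89e-04), the phosphatidate phosphatase Lpin1 (0.8, adjusted p = 0.00634) and the mevalonate pathway kinase Pmvk. Pmvk was not detected in saline mice at either time, rose at least 1.81-fold at 4 h and had a fitted difference of 0.67 (adjusted p = 0.0198). Plin4 read 8.33, 6.25, 9.92 and 7.92 in formoterol mice at 4 h, 3.41, 3.33, 4.4 and 4.83 in saline mice at 4 h, 5.14, 5.21, 6.56 and 4.86 in formoterol mice at 1 h and 5.46, 6.27, 4.96 and 5.4 in saline mice at 1 h. Its 1 h groups overlapped, and the difference came from both treatments, 0.56 in formoterol and -0.48 in saline mice. The uncoupling protein gene Ucp3 was not called (0.74, SE 0.23, adjusted p = 0.0886).

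Of 18 measured glucose and glycogen genes 3 grew and none waned (median 0.14, none of 13 without table probes). Beside Ppp1r3c they included Gbe1, the glycogen branching enzyme, which rose by 1.06 at 4 h with 0.05 at 1 h (difference 1.01, SE 0.16, adjusted p = 0.00133). Pdk4, the kinase that inhibits pyruvate dehydrogenase, had 33, 26.6, 34.4 and 24.9 in formoterol mice at 4 h, 11.3, 9.89, 10.2 and 9.58 in saline mice at 4 h, 19.8, 23.3, 19.9 and 21.9 in formoterol mice at 1 h and 21.1, 24.3, 8.35 and 14.1 in saline mice at 1 h. Saline mice at 1 h ranged widely, with replicate 3 at 8.35, and the difference of 1.09 (SE 0.31, 95% interval 0.43 to 1.75) was not called (adjusted p = 0.0677). It was called with slide as a fixed block (adjusted p = 0.0199) and without saline 1 h replicate 3 (1.40, adjusted p = 9.93e-04). Hk2, the insulin-regulated hexokinase, was not called (0.51, SE 0.17, adjusted p = 0.136), having responded with 1.12 at 4 h and 0.61 at 1 h. The largest difference of the list lay on the other side, in Pfkfb3, a regulatory enzyme of glycolysis, at -1.19 (SE 0.36) and not called (adjusted p = 0.0806), with responses of 0.46 at 4 h (adjusted p = 0.227) and 1.65 at 1 h (adjusted p = 6.03e-04). Ppard, a nuclear receptor of fatty acid oxidation, grew by 0.83 (SE 0.12, adjusted p = 7.92e-04), and made up with Ppargc1a and Ppargc1b the called genes among 8 measured coactivators and nuclear receptors (median 0.04, no larger and 1 smaller of 6 without table probes).

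In the IGF, FoxO and mTOR list 3 of 14 genes were larger and 1, Ddit4l, was smaller (median 0.02, 2 and 0 of 12 without table probes). Foxo1, a transcription factor of fasting and atrophy, read 0.878, 0.781, 0.997 and 1.14 in formoterol mice at 4 h, 0.403, 0.32, 0.425 and 0.513 in saline mice at 4 h, 0.522, 0.603, 0.697 and 0.473 in formoterol mice at 1 h and 0.578, 0.654, 0.534 and 0.575 in saline mice at 1 h. It was not detected in saline mice at 4 h, against which it rose at least 1.91-fold, and the 1 h groups overlapped (fitted difference 1.24, SE 0.2, adjusted p = 0.00144). Flcn, the folliculin gene, whose product acts on mTORC1 at the lysosome, grew by 1.11 (SE 0.23, adjusted p = 0.0111). Eif4ebp1, the repressor of cap-dependent translation, was lower at 1 h (-0.41, adjusted p = 0.036) and not called at 4 h (0.2), a difference of 0.61 (SE 0.15, adjusted p = 0.0234). Of 14 measured ubiquitin and atrophy genes 5 were larger and none smaller (median 0.34, 3 of 11 without table probes). They included Usp2, the F-box gene Fbxo34 (0.86, adjusted p = 9.09e-04), the polyubiquitin gene Ubb (0.41, adjusted p = 0.044), whose repeated units other ubiquitin genes share, and Map1lc3a, an autophagosome protein (0.63, adjusted p = 0.0227).

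Genes linked to immune cells and cytokines were larger in 5 of 13 measured (none smaller, median 0.44, 1 of 8 without table probes). Ifi30, a lysosomal thiol reductase of antigen processing, had 2.7, 2.38, 2.63 and 2.5 in formoterol mice at 4 h, 0.887, 0.628, 0.752 and 0.922 in saline mice at 4 h, 1.34, 1.27, 0.962 and 0.973 in formoterol mice at 1 h and 0.958, 0.973, 0.754 and 0.783 in saline mice at 1 h. The 4 h formoterol mice stood apart from all others (difference 1.31, SE 0.18, adjusted p = 5.27e-04). A second probe of Ifi30 differed by 0.70 (adjusted p = 0.00521, limma). Ly6a, a surface antigen induced by interferon, differed by 1.09 (adjusted p = 0.00266), Stat3, a mediator of interleukin-6 signalling, by 0.81 (adjusted p = 0.00127), and the chemokine genes Ccl9 and Ccl11 by 0.92 and 0.64 (adjusted p = 0.0191 and 0.0174). S100a8, a calcium-binding protein abundant in neutrophils, had 1.2, 1.21, 1.18 and 1.43 in formoterol mice at 4 h, 0.582, 0.324, 0.442 and 0.469 in saline mice at 4 h, 0.779, 0.591, 0.704 and 1.08 in formoterol mice at 1 h and 0.465, 0.622, 0.975 and 1.46 in saline mice at 1 h. Its saline mice at 4 h were detected on 1 of 4 arrays and ranged widely at 1 h, and the difference of 1.55 (SE 0.37, adjusted p = 0.0248) held -0.85 in saline mice. Lgals3, the lectin galectin-3 of macrophages, differed by 1.35 (SE 0.32, adjusted p = 0.0228).

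Transcripts of blood cells were measured in the same arrays. The haemoglobin genes Hba-a1, Hbb-b1 and Hbb-b2 differed by 1.66, 1.02 and 0.59, not called (adjusted p = 0.0565 to 0.469), and their summed level was 47.9 to 82 in formoterol and 11.6 to 38.1 in saline mice at 4 h, and 43.2 to 77.4 in formoterol and 27.2 to 74.4 in saline mice at 1 h. The neutrophil markers S100a8 and S100a9 together read 1.98 to 2.37 in formoterol and 0.731 to 1.17 in saline mice at 4 h, and 1.17 to 1.93 in formoterol and 0.948 to 2.60 in saline mice at 1 h, with S100a9 not called (0.90, adjusted p = 0.0857). Of 4 macrophage markers Lgals3 was called, and Csf1r, Lyz2 and C1qb were at -0.15, 0.02 and 0.07 and not called, with a sum of all 4 of 3.63 to 4.06 in formoterol and 2.68 to 3.47 in saline mice at 4 h, and 3.06 to 3.75 in formoterol and 2.89 to 5.33 in saline mice at 1 h. The part of blood and immune cells in the differences of S100a8, Lgals3 and their group was not tested. The 2 measured markers of fast fibres, Myh1 and Actn3, summed to 39.5 to 52.5 times the array median over all mice, and their differences of 0.09 and 0.12 were not called.

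Further large growing rises were those of the clone C330006P03Rik (1.76, SE 0.2, adjusted p = 5.38e-05), Fam13c (1.42, SE 0.15, adjusted p = 2.10e-05) and 6430548M08Rik (1.35, adjusted p = 3.60e-04). A second probe of 6430548M08Rik differed by 0.78 (adjusted p = 0.0224, limma). Fam13c read 2.02, 2.02, 2.29 and 1.66 in formoterol mice at 4 h, 0.882, 0.734, 0.763 and 0.78 in saline mice at 4 h, 0.654, 0.715, 0.812 and 0.701 in formoterol mice at 1 h and 0.67, 0.881, 0.742 and 0.776 in saline mice at 1 h. The 4 h formoterol mice exceeded all others and the other 3 groups overlapped. Among the list members not yet described, Gadd45a, a gene of growth arrest and DNA damage, differed by 1.04 (adjusted p = 0.0274), the proteoglycan gene Sdc4 by 0.79 (adjusted p = 0.00754) and Xbp1, a factor of the unfolded protein response, by 0.64 (adjusted p = 0.0126). Ttyh1, a membrane protein gene not detected in saline mice, rose at least 1.76-fold at 4 h (fitted difference 0.69, adjusted p = 0.0119). A change of sign between called responses was seen in 1 named gene, Ifi205, an interferon-inducible gene, at 0.55 at 4 h and -0.41 at 1 h (difference 0.95, SE 0.14, adjusted p = 7.84e-04). A gene name was available for 95 of the larger and 36 of the smaller called probes. Among called probes without a name, the 2 largest in each direction differed by 1.64 and 1.45 and by -1.98 and -1.82.

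Of the 15 genes measured by qRT-PCR in the study with a named tested probe, 9 had a larger response, none a smaller one and 6 were not called, with a median of 0.80 (3 of 4 larger without table probes). Smad1 had no named probe and is not in this count. The study lists it as lower at 4 h and as not significant at 1 h, which is the direction of a smaller response. The study chose these genes on the same muscles, so the count is no independent evidence. Several lists held no called gene. These were oxidative phosphorylation (39 genes measured, median 0.09), ribosomal proteins (61, median 0.10), proteasome subunits (17, median 0.12), contractile and calcium handling genes (10, median 0.06) and histones (8, median -0.33). At an unadjusted p under 0.05 limma counted 2, 3, 4, 0 and 0 genes in these lists, and 992 of all 7596 probes. The histones were not flat in the response itself: 7 of 8 were called as lower at 4 h and none at 1 h. Of their 8 differences 1 was above 0.

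**Figure D5:**
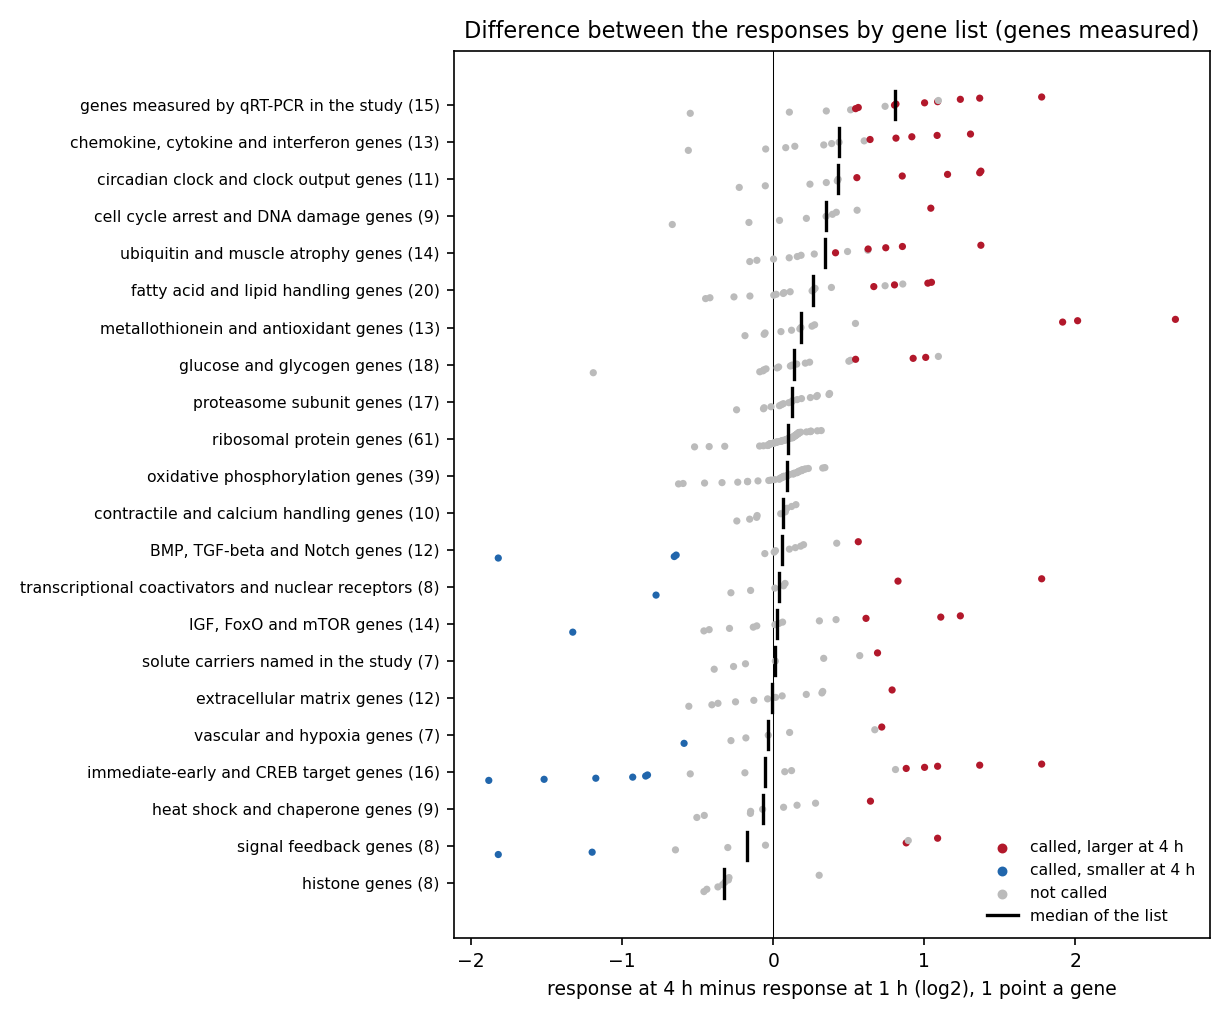
Response at 4 h minus response at 1 h (log2, horizontal axis) of each measured gene in 22 lists (points, called genes in colour), with the number of genes measured in brackets and the median of the list as a black bar. The immediate-early and CREB target genes spread from -1.88 to 1.78, while the ribosomal protein genes lie between -0.52 and 0.32 with none called.

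The arrays lay on 3 slides that divide the times unequally. Slide 1 held 3 of the 4 mice of each 4 h group, slide 3 held 2 of each 1 h group, and only slide 2 held all 4 groups, with 1 mouse of each at 4 h and 2 at 1 h. With slide as a fixed block 215 larger and 111 smaller probes were called. Within slide 2 alone the counts were 98 and 66, where the single 4 h mice were assumed to vary like the 1 h pairs, and without slide 2 they were 116 and 35. Within slide 2 some differences printed above were smaller by over 1.5 times: Mt2 at 1.18, Lgals3 at 0.65, Ppp1r3c at 0.57, Fbxo34 at 0.46, Ttyh1 at 0.45, Ccl11 at 0.42, Ccl9 at 0.41, Pmvk at 0.27, Ubb at 0.25, Cdc42ep3 at -0.35 and Ddit4l at -0.23, while Csrnp1 was at -1.46. The unnamed probes printed at 1.45 and -1.98 were at 0.79 and -1.17 there. The second probes of Ifi30 and 6430548M08Rik were at 0.298 and 0.453 within slide 2. With slides 1 and 3 only, Ppargc1b was at -0.50 and Pdgfa at -0.34. Of the genes above that were not called, Pdk4 was called under 4 of 33 alternatives, Ucp3, Csnk1d and Nr4a2 under 3 and Hk2 under 2. Leaving out 1 array at a time ended the call of some genes above: 1200016E24Rik and Egln3 under 13 of the 16 arrays, Ubb under 12, Csrnp1, Emcn and Pdgfa under 10, Klf4 under 9, Gadd45a under 7, Eif4ebp1 and Smad3 under 6, Map1lc3a under 4, Cebpb under 3, Atp1b4, Lgals3 and S100a8 under 2, and Ccl9, Pmvk and Rora under 1.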

How the data were processed

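Total RNA of the tibialis anterior was hybridised to Sentrix Mouse-6 bead arrays, 1 mouse to each of 16 arrays on 3 slides. The deposited intensity of each probe and its deposited detection score came from BeadStudio 1.5.1.3. A probe was kept where 4 or more arrays gave it a score of 1 (7596 of 46120). In GeneSpring the authors scaled every array so that the median of these same probes was 1, which gave the deposited ratio analysed here. The log2 of the ratio was fitted with limma 3.58.1 in R 4.3.3 to the 4 group means, with eBayes moderation and Benjamini-Hochberg adjustment over all kept probes. The code was tested on simulated data. Where a gene had several probes, the brightest was used in lists.

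The text names the 12 named probes with the largest called differences in each direction (the brightest probe of a gene), the 2 largest without a name, up to 6 called members of each list, and the qRT-PCR and clock genes. The members and lists were chosen with earlier results of these data known. Sequences came from RefSeq (GRCm38.p6). A group not detected on any array has only a bound: "at least" folds set the higher group's mean log2 value against the mean of, per array, the higher of the lowest detected ratio and the probe's own. The methods name separate animals for the groups. Some list members counted in the text are not reported here by name. The number of arrays limits the precision, and the qRT-PCR data were not analysed here.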

Additional observations from a re-analysis of the deposited data

Results flagged for a closer look

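Each of the 256 called probes is by construction a response that differed between the times by the test of the difference itself, with 167 larger and 89 smaller at 4 h. Among those the text describes, a called response changed sign between the times in 2. Ifi205 differed by 0.95, with 0.55 at 4 h and -0.41 at 1 h. An unnamed probe, scl50147.4_283-S, differed by -1.82, with -0.88 at 4 h (adjusted p = 0.000743, limma) and 0.94 at 1 h (adjusted p = 0.00178).

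Single mice lay far from the other 3 of their group in 4 of 96 groups tested among the 12 largest named differences in each direction, and in 38 of 584 over the 146 probes followed through the alternatives, where chance gives about 1 in 20. They were Mt1 in saline 4 h replicate 1 (a ratio of 3.30, the lowest) and in saline 1 h replicate 3 (13.8, the highest), S100a8 in formoterol 4 h replicate 4 (1.43) and Klf2 in saline 4 h replicate 1 (0.878).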

How the results depend on the processing

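Quantile, normexp and floor scaling, an offset, a detection filter by group, moderation with a trend, slide as a fixed or a random block and a covariate for signal over background gave counts within 1.5 times the 167 larger and 89 smaller calls. Counts moved under the others. Without a filter on dim probes 90 larger and 28 smaller were called, with array weights 272 and 164, by the methods' t-test in its form for a difference of differences 51 and 17, at an adjusted p under 0.01 83 and 31, and with at least a 2-fold difference 37 and 18. Slide 2 alone gave 98 larger, and slides 1 and 3 only gave 35 smaller. Leaving out 1 array gave 124 to 196 larger and 57 to 111 smaller, the 57 without formoterol 1 h replicate 2. Leaving out formoterol 4 h replicate 2 and saline 4 h replicates 2 and 4, an alternative chosen after seeing the data, gave 125 larger and 52 smaller. The cause of these shifts was not tested.

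Of 135 called probes, those with a gene name and the 4 unnamed ones given, 23 were called under all 33 alternatives. By the methods' t-test form 96 of them lost the call. These included Fos (adjusted p = 0.11), Junb (0.09), Ppargc1a (0.145), Nfil3 (0.09), Mt2 (0.098) and Pde4d (0.053). Hes1, Klf2, Crem, Cry2 and the 3 Srxn1 probes kept it. The uncalled Dbp turned to -0.015 with slides 1 and 3 only, and Csnk1e turned to 0.11 within slide 2 alone and to 0.017 without those 3 arrays. Deviations of same-numbered mice of different groups correlated at -0.28 to 0.30 (median 0.049, 9 of 24 over 0.1). Those of differently numbered mice correlated at -0.51 to 0.44 (median 0.011, 14 of 72 over 0.1). The numbers were not taken as pairs, and a replicate block gave 177 larger and 92 smaller. Signal over background, 2.33 to 3.74, limits probes near the detection level.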
